A study of Mus musculus with 18 samples.

Results

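The net effect of hydrogen peroxide (H2O2) followed by fluvastatin (FV) on gene expression was measured in primary mouse Leydig cells in which Prdx1 had been knocked down by siRNA. The comparison set the 3 siprdx1+H2O2+FV libraries against the 3 siprdx1 libraries, 6 of the 18 libraries of the series, across the 16432 genes that passed the filter on low counts. All 6 cultures received the Prdx1 siRNA. The siprdx1 group had neither peroxide nor statin and was given 0.1% DMSO for the last 6 hours. The siprdx1+H2O2+FV group was exposed to 200 µM H2O2 for 30 min and then to 5 µM fluvastatin for 6 hours, so the comparison holds both agents together, and whether its cultures also contained DMSO is not stated. The values of 3 further groups are set beside it: siprdx1+H2O2, which had the peroxide and then DMSO, and siNC and siNC+H2O2+FV, which had a control siRNA in place of the Prdx1 siRNA and otherwise the same treatments. No group had fluvastatin without peroxide. The labels name 3 biological replicates per group without saying whether they came from separate animals, so every p-value measures the spread between these libraries.

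Leydig cells lie between the tubules of the testis and make testosterone from cholesterol. Peroxiredoxin 1, the product of Prdx1, is a thiol enzyme that reduces peroxides and is itself reduced by thioredoxin. Fluvastatin is a statin and blocks the mevalonate pathway, which supplies both cholesterol and the isoprenoid tails that hold small GTPases on membranes. When sterols fall, cells are known to raise the enzymes of this pathway through SREBP2. The state of the actin cytoskeleton is known to set the activity of the transcription factor SRF through its MRTF coactivators.

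The 6 libraries held between 15201530 and 23455026 counts, and the 18 libraries between 15201530 and 23898435. Prdx1 (chr4:116685544-116700822, GRCm38), the targeted gene, stood at 498, 426 and 468 CPM (counts over the TMM-corrected total of the library, rescaled) in the 3 siprdx1 libraries and at 559.9, 519 and 547 CPM in the 3 siprdx1+H2O2+FV libraries. In the control siRNA arm it stood at 1345, 1358 and 1279 CPM without treatment and at 1524, 1528 and 1459.5 CPM with both agents, above every library of the knockdown arm. Within the knockdown the treated libraries lay slightly higher, with a log2 fold change of 0.22 ± 0.06 (SE) and an adjusted p of 0.00979 (edgeR quasi-likelihood test, Benjamini-Hochberg). That call was lost without siprdx1 replicate 2 (adjusted p = 0.069), without siprdx1+H2O2+FV replicate 1 (0.053) and when scaled by library size alone (0.322). Near copies of Prdx1 were counted as genes of their own, so its level is uncertain to that extent. They are Gm21399 (98.3% identity over 597 bases) and Gm7204 (97.5% over 597 bases). The Leydig label was checked against 24 fixed markers, of which 21 were tested: Star, Cyp11a1 and Hsd3b1 were present, while Cyp17a1 had 1 and 3 counts and Hsd17b3 had 6 and 5 counts in the siprdx1 and siprdx1+H2O2+FV libraries together. All 20 macrophage markers were tested, with a summed level of 8763 to 9026 CPM in siprdx1 and 9539 to 10000 CPM in siprdx1+H2O2+FV, and 11 of 12 fibroblast markers were tested, at 6394 to 6676 and 6687 to 6912 CPM. Marker transcripts of several cell types were thus present, and in such bulk samples fewer cells of a type and less RNA per cell cannot be told apart. On the second principal component, which carried 12.5% of the variance, replicate 2 of both groups stood apart from the other 4 libraries, while the first, with 59.1%, separated the groups.

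Peroxide and fluvastatin together were followed by changes in many of the tested genes. At an adjusted p below 0.05, 2079 genes were higher (12.7% of the 16432) and 2114 were lower (12.9%), and the median log2 fold change over all tested genes was 0.005. The larger changes were mostly rises: 436 genes were at least 2-fold higher against 278 lower, 141 against 41 at 4-fold, and 27 against 1 at 16-fold. Without replicate 2 of both groups, which stood apart, 1579 were higher and 1393 lower. The balance of rises and falls depends on the scaling. With library size alone in place of TMM the median moved to -0.13 and the counts became 1153 higher and 4503 lower, so directions of small changes hold relative to the TMM scale. All tests below are edgeR's quasi-likelihood test with Benjamini-Hochberg adjustment over all 16432 genes, and list counts can be read against the 12.7% and 12.9% called overall.

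**Figure D1:**
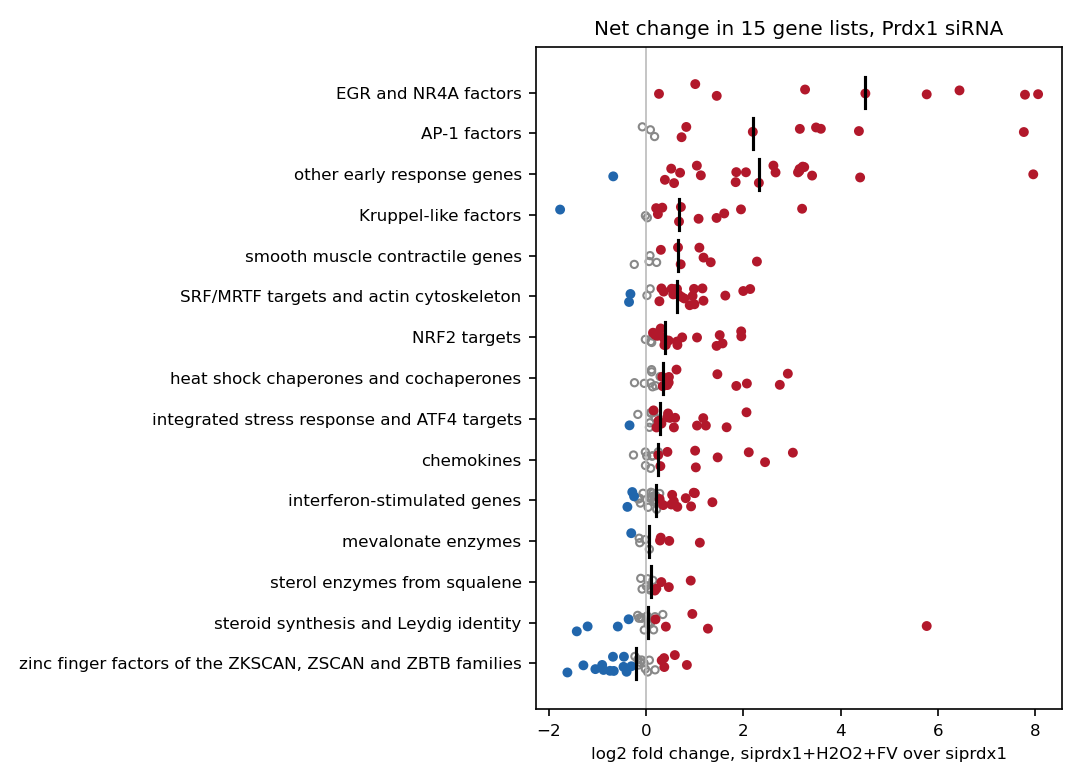
Net log2 fold change (x axis, siprdx1+H2O2+FV over siprdx1, no unit) of every tested member of 15 gene lists (rows). Each point is a gene, filled red (higher) or blue (lower) where it passed the adjusted p of 0.05 and open where it did not, and black bars mark list medians, which run from 4.51 for EGR and NR4A factors to -0.20 for the zinc finger factors.

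Immediate early genes, which are transcribed within minutes of a stimulus without new protein synthesis, made up 9 of the 14 largest rises among genes named by rule. All 9 EGR and NR4A factors were higher, with a median log2 fold change of 4.51. Egr3 (chr14:70077203-70082614, GRCm38), a zinc finger factor of the EGR family, stood at 2.38, 2.37 and 2.56 CPM in siprdx1 and at 525, 543 and 544 CPM in siprdx1+H2O2+FV, a log2 fold change of 7.79 ± 0.09 (adjusted p = 1.8e-25). Nr4a1, an orphan nuclear receptor that is known to drive steroidogenic genes in Leydig cells, went from 21.2, 23.9 and 22.2 to 1219, 1294 and 1161 CPM (5.77 ± 0.08, adjusted p = 9.6e-24). Nr4a3, its relative, rose by 6.44 ± 0.13 and Egr2 by 4.51 ± 0.07. Egr4 was at 0, 0.0846 and 0.0625 CPM in siprdx1, at or under the level of 3 counts, and at 14.2, 17 and 14.1 CPM after both agents. The groups did not overlap for these 5 genes, which the rule for naming the largest rises required. Of the other 5 largest rises, Hbegf is described below and 4 are on none of the gene lists, all at low levels. Necab2, a calcium-binding protein, went from 0.362, 0.423 and 0.188 to 9.96, 8.21 and 8.77 CPM (4.71 ± 0.28). Dlx3, a homeobox factor, went from 0.0517, 0 and 0 to 1.67, 2.25 and 3.61 CPM. Ccno, a cyclin of multiciliated cells, went from 0.0517, 0.212 and 0 to 4.19, 4.77 and 4.42 CPM, and Rassf6, a Ras association domain protein, from 0.0517, 0.0846 and 0.125 to 3.97, 3.3 and 3.55 CPM.

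Of 11 tested AP-1 factors, the FOS, JUN and ATF proteins that pair to bind DNA, 8 were higher and none was lower (median 2.19). Fosb went from 1.86, 2.29 and 2.38 to 461, 495 and 462 CPM (7.76 ± 0.10, adjusted p = 1.4e-24). Fos went from 17.1, 19.8 and 22 to 223, 221 and 218 CPM (3.49 ± 0.07, adjusted p = 1.4e-20). Fosl1 and Atf3 rose too, and Fosl1 shares 1163 exonic bases on the opposite strand with Ccdc85b, from which reads can be told apart only if the counting used strand, which is not stated. Of 21 other early response genes, 20 were higher and 1 was lower (median 2.32). Arc (chr15:74669083-74672570, GRCm38), a cytoskeletal protein best known from synapses, went from 1.76, 2.24 and 1.94 to 496, 525 and 473 CPM (7.96 ± 0.12, adjusted p = 3.0e-23). Btg2, an antiproliferative factor, went from 42.5, 42.3 and 42.2 to 887, 903 and 890.2 CPM (4.40 ± 0.05), and Zfp36, which speeds the decay of AU-rich mRNAs, from 59.2, 58.4 and 59.7 to 590.2, 559.6 and 538 CPM (3.25 ± 0.06). The 2 groups did not overlap for Fos and Zfp36, and for Fosb, Arc and Btg2 the rule for naming the largest rises required this.

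The siprdx1+H2O2 libraries, which were exposed to peroxide but not to the statin, place these rises between the 2 agents; the net change and both steps share libraries, so their values are only set side by side. Egr3 stood at 1.8, 1.83 and 1.75 CPM after peroxide alone, with a log2 change of -0.44 ± 0.15 (adjusted p = 0.11) at the peroxide step and 8.22 ± 0.09 (adjusted p = 1.7e-25) at the statin step. Nr4a1 likewise stood at 21.9, 26.4 and 24.4 CPM after peroxide (0.11 ± 0.08, then 5.65 ± 0.08). Fos had its larger step at the peroxide: 111, 120.3 and 117 CPM, a change of 2.57 ± 0.07 (adjusted p = 8.3e-17) followed by 0.93 ± 0.06 (adjusted p = 9.4e-11). Arc rose at both steps, by 3.38 ± 0.14 and then 4.58 ± 0.09, through 19.3, 21.5 and 21.7 CPM. Btg2 also rose at both, by 1.83 ± 0.04 and 2.57 ± 0.04. Peroxide preceded harvest by the 6 hours of DMSO in that group, so an earlier, passing change after peroxide was not measured.

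**Figure D2:**
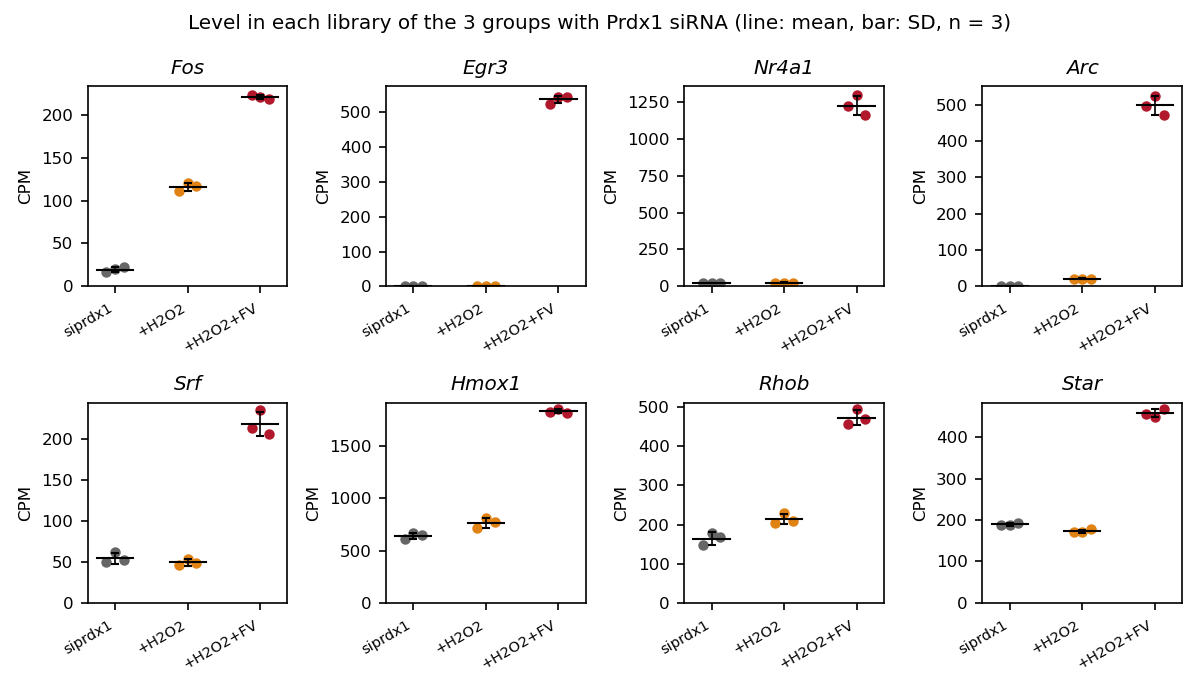
Level (y axis, CPM from 0) of 8 genes in each library of the siprdx1, siprdx1+H2O2 and siprdx1+H2O2+FV groups (x axis). Points are libraries, lines means and bars SDs (n = 3). Fos is at 111 to 120 CPM after peroxide alone, whereas Egr3, Nr4a1 and Srf lie near the untreated level in that group and higher in the group with both agents.

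Genes that oppose growth factor signals rose as well. Of 18 MAP kinase phosphatases and receptor feedback inhibitors, 12 were higher and 3 lower (median 0.87). Errfi1, an inhibitor of the EGF receptor, went from 296, 282 and 278 to 2545, 2546 and 2597 CPM (3.17 ± 0.05, adjusted p = 9.6e-23). Dusp5, which inactivates ERK in the nucleus, went from 8.58, 9.27 and 8.19 to 97, 98.2 and 93 CPM (3.46 ± 0.09). Of 9 tested EGF-family ligands and receptors, 3 were higher and 1 lower. The ligand Hbegf rose by 4.57 ± 0.09 and the ligand Ereg by 4.12 ± 0.09, while the receptor Erbb2 fell from 17.3, 22.8 and 17.4 to 11.3, 12.5 and 10.9 CPM (-0.73 ± 0.10). Of 13 Kruppel-like factors, 10 were higher and 1 lower (median 0.68): Klf10 rose by 3.21 ± 0.06, Klf4 by 1.95 ± 0.06 and Klf2 by 1.45 ± 0.10. Klf15 fell from 43, 44.8 and 41.7 to 12.6, 13.8 and 11.6 CPM (-1.77 ± 0.10, adjusted p = 1.2e-12).

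Genes of the actin cytoskeleton were mostly higher. Of 25 SRF/MRTF targets and actin cytoskeleton genes, 21 were higher and 2 lower (median 0.64), and of 11 smooth muscle contractile genes 7 were higher and none lower (median 0.66). Srf (chr17:46548329-46556175, GRCm38), the serum response factor itself, went from 49.5, 62 and 52.2 to 214, 235 and 206 CPM (2.00 ± 0.09, adjusted p = 4.6e-14). Itga5, the fibronectin receptor subunit, went from 132, 137 and 130.1 to 591, 607 and 563 CPM (2.14 ± 0.05). Acta2, smooth muscle actin, went from 509.8, 549 and 483 to 1212, 1206 and 1078 CPM (1.18 ± 0.07), with no overlap between the groups. Actg1, a cytoplasmic actin, rose by 1.18 ± 0.14, but several near-identical copies of it were counted as genes of their own, so its level is uncertain. At the peroxide step Srf changed by -0.14 ± 0.09 (adjusted p = 0.422) and at the statin step by 2.13 ± 0.09 (adjusted p = 1.5e-14).

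SRF binds the CArG box, CC followed by 6 bases that are each A or T and then GG. It was searched on both strands in the RefSeq promoters (GRCm38.p6) from 250 bases before to 50 after each start, where 1.63% of all 32851 promoters and 1.81% of the 27025 genes hold it. It was found for 9 of the 23 SRF/MRTF genes with a promoter in the table and for 3 of the 11 such genes among the 13 early and SRF genes named by rule. It was found for none of the 8 smooth muscle contractile genes and none of the 9 AP-1 factors with a promoter in the table, and for 4.0% of the 275 such genes at least 2-fold higher. The windows before the start of those 3 genes are shown because they place the box next to genes that rose; capitals mark it.
Srf (chr17:46556180-46556279, minus strand): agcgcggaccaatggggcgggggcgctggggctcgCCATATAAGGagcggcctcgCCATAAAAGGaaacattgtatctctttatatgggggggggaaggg
Actg1 (chr11:120348541-120348620, minus strand): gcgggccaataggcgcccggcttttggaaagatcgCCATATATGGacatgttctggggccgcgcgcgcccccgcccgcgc
Egr2 (chr10:67537459-67537538, plus strand): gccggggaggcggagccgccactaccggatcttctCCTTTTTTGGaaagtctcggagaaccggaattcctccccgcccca
The Srf window holds 2 boxes, and the promoters of 3 further Egr2 starts hold another, which is not printed. A match describes the letters only. Boxes farther from the start or with other letters were not searched, so a missing match holds for this pattern and stretch alone.

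Rhob, a short-lived prenylated GTPase, went from 147, 178 and 167 to 455, 494 and 469 CPM (1.53 ± 0.07, adjusted p = 5.1e-14), with 0.38 ± 0.07 at the peroxide step and 1.15 ± 0.07 at the statin step. Of 20 YAP/TEAD targets, 9 were higher and 3 lower. The coagulation receptor F3 went from 128, 126 and 122 to 1188, 1167 and 1229.9 CPM (3.25 ± 0.05). Of 23 TGF-beta and BMP signalling genes, 13 were higher and 3 lower (median 0.61).

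The statin's own pathway moved less. Of 9 mevalonate enzymes 4 were higher and 1 lower (median 0.07), and of 12 sterol enzymes from squalene onward 5 were higher and none lower (median 0.11). With library size alone these became 1 higher and 3 lower, and 2 and 2, so the direction of the smaller changes depends on the scaling. Insig1, which holds the SREBP escort protein in the endoplasmic reticulum, rose by 0.77 ± 0.06. Hmgcs1 rose by 0.30 ± 0.08, a call lost under library size alone. The single mevalonate enzyme that fell, Fdps, did so by -0.30 ± 0.11 (adjusted p = 0.0387), a call lost when any one of 5 libraries was left out (adjusted p up to 0.189, without siprdx1 replicate 1). Of 10 prenylation and CAAX processing enzymes, 1 was higher and none lower, and that call was lost with 4 of the 6 single libraries left out.

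Oxidative and protein stress genes rose moderately. Of 24 NRF2 targets, 18 were higher and none lower (median 0.38). Srxn1, sulfiredoxin, which reactivates overoxidized peroxiredoxins, went from 207, 197 and 193 to 782, 757 and 779 CPM (1.96 ± 0.05, adjusted p = 2.2e-19). Txnrd1, thioredoxin reductase, went from 316, 307 and 309.5 to 908, 932 and 934 CPM (1.57 ± 0.04), and Hmox1, heme oxygenase, from 606, 664 and 653 to 1823, 1854 and 1817 CPM (1.51 ± 0.05), with 0.26 ± 0.05 at the peroxide step and 1.26 ± 0.05 at the statin step. Of 27 other antioxidant enzymes 12 were higher and 1 lower (median 0.20; 6 and 2 with library size alone). Of 19 heat shock chaperones 11 were higher and none lower (median 0.34). Dnajb1, a cochaperone of HSP70, went from 36.4, 38.6 and 36.4 to 271, 292 and 278 CPM (2.91 ± 0.06). The HSP70 genes Hspa1a and Hspa1b also rose but share 99.2% identity over 2201 bases, so reads cannot be assigned to one of them with certainty. Of 23 genes of the integrated stress response 15 were higher and 1 lower (median 0.29), including Atf4, which rose by 1.23 ± 0.05. Of 20 endoplasmic reticulum chaperone and degradation genes 13 were higher and none lower (median 0.20; 6 higher and 1 lower with library size alone).

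Many inflammatory genes were higher. Of 17 tested chemokines 9 were higher and none lower, of 14 cytokines and prostaglandin enzymes 10 were higher and 1 lower (median 0.83), and of 14 NF-kappaB subunits and feedback inhibitors 10 were higher and 1 lower (median 0.59); the single lower member of each of the last 2 lists lost its call with some single libraries left out. Ptgs2, the inducible cyclooxygenase, went from 5.48, 3.55 and 5.57 to 73, 72.5 and 77.7 CPM (3.96 ± 0.15, adjusted p = 7.1e-15). Lif, an IL-6 family cytokine, went from 5.79, 8.42 and 8 to 83.3, 83.7 and 80.8 CPM (3.48 ± 0.10), and Cxcl1, a neutrophil attractant, from 4.29, 5.25 and 5.13 to 43, 37.1 and 39 CPM (3.02 ± 0.11). Macrophage markers stood beside these genes: 4 of 20 were higher (Cd14, Csf1r, Ctss and Marco) and none lower, with a median of 0.12; without siprdx1+H2O2+FV replicate 1 the count was 2. Their summed levels are given above. The part of cell composition in these changes was not tested. Of 24 p53 targets 11 were higher and 4 lower.

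In the steroidogenic program the changes went both ways. Of 21 tested genes of steroid synthesis and Leydig identity, 5 were higher and 4 lower (median 0.04; 4 and 9 with library size alone). Star (chr8:25806555-25815982, GRCm38), which brings cholesterol to the inner mitochondrial membrane, went from 187, 189 and 193 to 455, 449 and 469 CPM (1.27 ± 0.05, adjusted p = 4.3e-15), through 171, 171 and 177 CPM after peroxide alone. Cyp11a1, the side-chain cleavage enzyme, lay at 686, 656 and 684 and 705, 676 and 678 CPM (0.02 ± 0.04, adjusted p = 0.753), and the 2 groups overlapped. Insl3, a Leydig cell hormone whose exons overlap those of Jak3, lay at 29.4, 64.1 and 41.5 and 31.1, 84.3 and 57.2 CPM (0.35 ± 0.50, adjusted p = 0.676), a spread within each group larger than the difference between them. Nr2f2, an orphan receptor of Leydig progenitors, fell from 121, 121 and 131 to 44.6, 46.2 and 48.4 CPM (-1.42 ± 0.07). Pdgfra, which is also a fibroblast marker, fell from 1017, 998 and 989 to 682, 666 and 662 CPM (-0.58 ± 0.04).

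The falls were shallower than the rises. Among named genes the deepest was Dnm3os, a noncoding RNA that carries microRNAs of the miR-199 and miR-214 families, which fell from 28.5, 23.1 and 28.3 to 5.68, 5.55 and 7.72 CPM (-2.09 ± 0.17, adjusted p = 4.4e-09), through 18.3, 13.5 and 15.3 CPM after peroxide alone. Clec2d, a C-type lectin, fell from 177, 148 and 179 to 47.7, 45.4 and 52.3 CPM (-1.79 ± 0.08), with -0.62 ± 0.08 at the peroxide step and -1.17 ± 0.08 at the statin step. Of 28 zinc finger factors of the ZKSCAN, ZSCAN and ZBTB families 13 were lower and 5 higher (median -0.20). Zfp108, Zfp85 and Zfp273, further zinc finger genes, were among the 14 largest falls. Long noncoding RNAs made up 31.3% of the genes at least 2-fold lower, against 7.66% of all tested genes and 8.49% of those at least 2-fold higher. Those 278 falling genes were of low abundance, with a median level of 1.38 CPM against 18.3 CPM over all tested genes. Counts on lncRNA genes took 0.865% to 0.889% of each siprdx1 library and 0.698% to 0.737% of each siprdx1+H2O2+FV library.

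Cell cycle and mitochondrial lists had small net medians. Of 22 mitosis and kinetochore genes 1 was lower and none higher (median -0.009), a call lost with most single libraries left out. Of 24 DNA replication and G1/S genes 6 were higher (25%) and 1 lower (median 0.08). That lower call was lost with any single library left out. Transcripts encoded by the mitochondrial genome showed opposite steps: of 13, 3 were higher in the net comparison (median 0.15; none with library size alone, none without siprdx1 replicate 2 and 1 without siprdx1+H2O2+FV replicate 1), with a median of -0.52 at the peroxide step and 0.60 at the statin step. mt-Cytb stood at 2161, 1979 and 2066 CPM in siprdx1, 1549, 1301 and 1334 CPM after peroxide and 2582, 2221 and 2322 CPM after both agents. The libraries after peroxide alone were all below the others for this gene. Both steps share those libraries, so a low level in that group alone gives steps of opposite sign.

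The same pair of treatments in the control siRNA arm shares no library with this comparison, and there 1862 genes were higher (11.3%) and 1913 lower (11.6%). Across the 16432 genes the net log2 fold changes of the 2 arms had a Pearson r of 0.793 and a Spearman correlation of 0.648, a description over genes that are not independent replicates. Egr3 rose by 7.63 ± 0.09 there against 7.79 in the knockdown and Star by 1.36 ± 0.05 against 1.27. The test of the difference between the 2 net effects passed for 24 genes with a higher value in the knockdown (0.146% of genes tested) and 1 with a lower value (0.00609%). An unadjusted p below 0.05 was found for 1020 of the 16432 genes. With no difference at all, a share of 0.05 of the genes would be counted there. Without siprdx1 replicate 1 the test passed for 15 genes higher in the knockdown. The difference has a larger error than either net effect, with a median SE of 0.148 on the log2 scale against 0.105 for the net effect, and differences small against that error could not be detected. Of these 25 genes, 14 were above 0 in the knockdown and below 0 in the control arm.

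**Figure D3:**
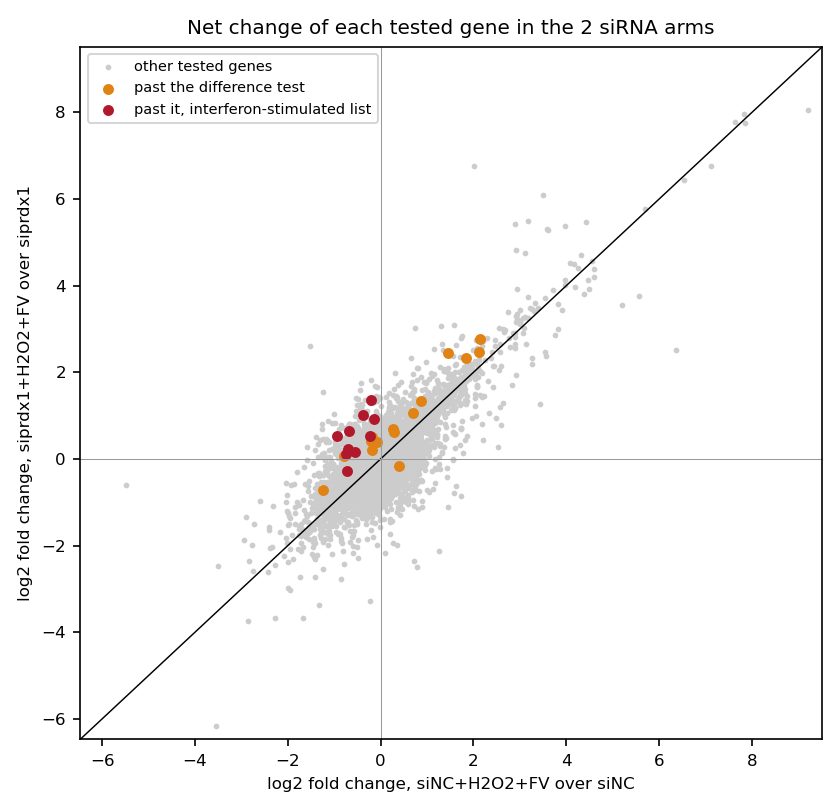
Net log2 fold change of each of the 16432 tested genes in the control siRNA arm (x axis) and the Prdx1 siRNA arm (y axis). Grey points are other genes, orange and red points the 25 that passed the test of the difference, red where they belong to the interferon-stimulated list (10 genes); the line marks equal change, and 24 of the 25 lie above it.

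Interferon-stimulated genes, which restrict viruses and are induced by interferon signalling, made up 10 of the 25 genes that passed that test. Of the 32 listed and tested, 12 were higher and 3 lower in the knockdown arm (median 0.21), none was higher and 18 were lower in the control arm (median -0.29), and 10 passed the test of the difference, all higher in the knockdown. Rsad2, viperin, stood at 12.2, 11 and 11 CPM in siprdx1 and 30.1, 28.8 and 29.2 CPM after both agents, against 11, 10 and 10.1 and 10, 9.01 and 7.89 CPM with control siRNA. Its log2 fold changes were 1.36 ± 0.12 and -0.21 ± 0.13, a difference of 1.58 ± 0.17 (adjusted p = 3.2e-05). Ifit1, which binds foreign RNA caps, went from 18.7, 18.9 and 18.1 to 37.1, 36.4 and 38.2 CPM with the knockdown and from 18.2, 20 and 18.7 to 17.7, 13.4 and 13.1 CPM without it (difference 1.38 ± 0.13, adjusted p = 5.2e-06). Irf7, the factor that amplifies type I interferon, went from 52.5, 56.3 and 53.4 to 79.3, 77.5 and 75.9 CPM against 48.4, 46 and 46.3 to 40.4, 40.9 and 38.7 CPM (difference 0.75 ± 0.08, adjusted p = 1.2e-05). In all 3 genes every treated knockdown library lay above every untreated one.

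Ifit3 had a difference of 1.33 ± 0.12 (adjusted p = 1.6e-06) and Ifit3b one of 1.48 ± 0.18, but the 2 share 97.8% identity over 1700 bases, so their reads cannot be separated with certainty. In both, the difference joined a rise in the knockdown and a fall in the control arm. The log2 changes were 0.64 ± 0.08 and -0.69 ± 0.09 for Ifit3, and 0.54 ± 0.12 and -0.95 ± 0.14 for Ifit3b. Isg15, a ubiquitin-like protein, had a difference of 1.07 ± 0.15 (adjusted p = 0.00106). Oasl2 had a difference of 0.70 ± 0.08 (adjusted p = 1.1e-04) made mostly of a fall in the control arm (-0.55 ± 0.06), since its rise in the knockdown did not pass (0.15 ± 0.06, adjusted p = 0.0606). Not all of the 10 rose in the knockdown: Stat2, a transcription factor of interferon signalling, was lower in both arms, from 90.1, 91.5 and 95 to 73.9, 81.8 and 71.4 CPM in the knockdown. Among the 25 genes past the test, Cmpk2, Rtp4 and Iigp1 also had no net call in the knockdown (adjusted p = 0.100, 0.491 and 0.746). These 3 genes changed by -0.70, -0.74 and -0.78 in the control arm. Without the 2 libraries numbered 2 of the knockdown groups, 9 of the 32 passed the difference test, and with GC and length offsets 20 did. At the peroxide step Ifit1 changed by 0.53 ± 0.09 and at the statin step by 0.47 ± 0.09, and Irf7 by 0.41 ± 0.05 and 0.11 ± 0.05. Beside these genes, Marco, a macrophage scavenger receptor, was 1 of 20 macrophage markers past the difference test (0.46 ± 0.09, adjusted p = 0.0205), and the median difference of the 20 was 0.13. The mean level of Marco went from 297 to 387 CPM in the knockdown and from 563 to 532 CPM in the control arm. Whether macrophages carry the interferon-stimulated transcripts was not tested.

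**Figure D4:**
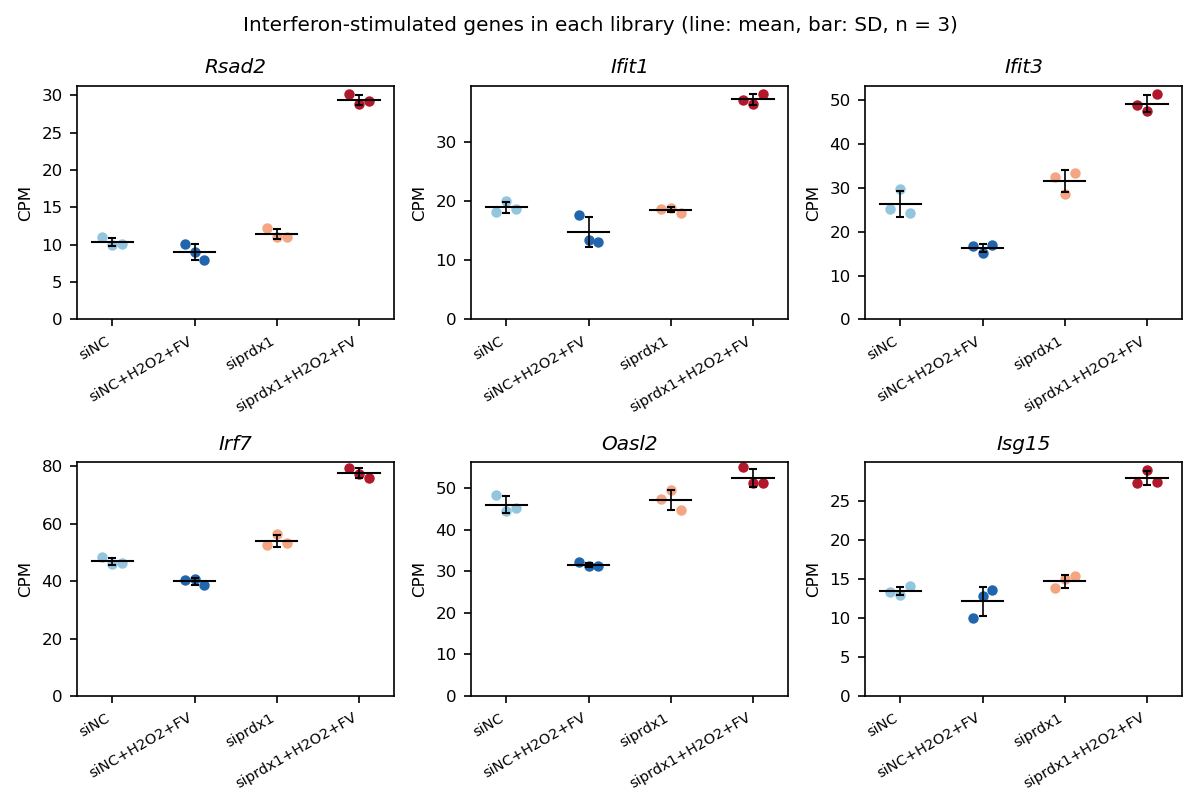
Level (y axis, CPM from 0) of 6 interferon-stimulated genes in each library of the siNC, siNC+H2O2+FV, siprdx1 and siprdx1+H2O2+FV groups (x axis), with group means and SDs (n = 3). Rsad2 is at 28.8 to 30.1 CPM in siprdx1+H2O2+FV and at 7.89 to 12.2 CPM in the other 9 libraries.

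The interferon response element was searched in the same promoters, as 2 copies of GAAA with any 2 bases between them, on either strand; this motif was chosen after the values were seen. It is held by 3.44% of all 32851 promoters and 3.99% of the genes, by 14 of the 24 interferon-stimulated genes with a promoter in the table, and by 6 of the 9 such genes past the difference test. Of the 7 such genes named by rule, all with a promoter in the table, 5 hold it and Irf7 and Oasl2 do not. The windows of 4 of those 5 are shown because they hold the element before the start, and that of Ifit3b is not printed. Capitals mark the element, read on the strand of the gene.
Ifit1 (chr19:34640750-34640848, plus strand): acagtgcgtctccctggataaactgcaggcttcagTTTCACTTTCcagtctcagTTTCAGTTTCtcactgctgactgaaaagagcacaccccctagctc
Ifit3 (chr19:34583338-34583451, plus strand): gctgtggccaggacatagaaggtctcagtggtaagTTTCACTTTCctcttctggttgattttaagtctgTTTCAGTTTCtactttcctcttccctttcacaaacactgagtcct
Isg15 (chr4:156200840-156200931, minus strand): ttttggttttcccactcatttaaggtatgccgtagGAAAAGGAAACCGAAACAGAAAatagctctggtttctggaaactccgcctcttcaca
Rsad2 (chr12:26456528-26456607, minus strand): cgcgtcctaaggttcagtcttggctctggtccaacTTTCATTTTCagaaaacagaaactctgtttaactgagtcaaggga
In Isg15, 3 overlapping matches form 1 run.

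Genes outside the interferon list also differed. Cxcl2, a neutrophil attractant, rose in both arms and further in the knockdown, from 4.5, 4.44 and 4.69 to 24.8, 23.3 and 26.1 CPM against 6.34, 6.47 and 5.44 to 18.2, 16.6 and 15.3 CPM (difference 0.99 ± 0.14, adjusted p = 0.00106). Thbs1, a matrix glycoprotein, had a smaller difference of 0.34 ± 0.06 (adjusted p = 0.00534) on net rises of 2.46 and 2.11. Ccn2, a matricellular growth factor, had a difference of 0.37 ± 0.08 (adjusted p = 0.048), a call lost under RLE scaling (adjusted p = 0.051) and with most single libraries left out. Its mean level went from 1032 to 2167 CPM in the knockdown and from 1478 to 2404 CPM in the control arm. The single gene lower in the knockdown was Slc38a2, an amino acid transporter, at 255, 229 and 241 and 214, 207 and 225 CPM in that arm and 204, 214 and 204 and 291, 273 and 251 CPM in the control arm. It did not pass in the knockdown (-0.17 ± 0.07, adjusted p = 0.063) and rose in the control arm by 0.39 ± 0.07, a difference of -0.56 ± 0.09 (adjusted p = 0.00542).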

How the data were processed

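RNA was measured by poly(A) sequencing of stranded libraries (TruSeq, paired-end) from 6 groups of 3 primary mouse Leydig cell cultures. The deposited table holds raw counts per gene for 18 libraries, aligned with HISAT2 to mm10 and counted with HTSeq per the submitters' processing notes; versions, annotation and the strand setting are not given in the sources used here. All 18 columns were matched to samples by name. Of 55487 gene IDs, 55227 were found in GENCODE vM21 (GRCm38), which gave positions, while symbols came with the deposited counts.

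Counts were fitted in edgeR 4.0.16 (R 4.3.3; robust quasi-likelihood, TMM scaling, filterByExpr, no covariate) to 6 group means over all 18 libraries, with 12 residual degrees of freedom, and p-values were adjusted over the 16432 genes tested. CPM are counts scaled to the TMM-corrected library size, and a common biological coefficient of variation of 7.01% was estimated. The contrasts were the net effect, the same in the control siRNA arm, their difference and the 2 steps. The text names the 14 largest rises and 14 largest falls of at least 1 CPM whose groups do not overlap, up to 4 members of each list with the largest changes, a fixed set, and the 6 smallest p-values of the difference in each direction; not all are printed. The comparison, the 46 gene lists and the tests were chosen with earlier results of these data known. Scripts were tested on simulated data. Near copies were sought with blastn at 90% identity over at least 200 bases. Replicate pairs differed by 2.64 to 15.8 times the chi-square of counting noise, so all were kept as separate libraries. Same-numbered libraries of the 2 groups correlated in their deviations at 0.099, 0.216 and 0.04, and differently numbered ones at -0.146 to 0.045. The labels do not state that the numbers pair the samples, so the main fit has no replicate term. Alternatives were RLE and library-size scaling, no filter, DESeq2 1.42.0, limma voom 3.58.1, the 2 or 4 groups compared alone, a 2-fold limit, GC and length offsets, the replicate block and leaving out libraries. Some genes are not reported here.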

Additional observations from a re-analysis of the deposited data

Results flagged for a closer look

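The net effect differed between the 2 siRNA arms, by a test of the difference itself, for 24 genes with a higher net change under Prdx1 siRNA and 1 with a lower net change. Of the 24, 10 are on the list of interferon-stimulated genes, which was chosen with earlier results of these data known. Among these 10, the log2 difference (knockdown minus control arm) was 1.58 for Rsad2, 1.48 for Ifit3b, 1.38 for Ifit1 and 1.33 for Ifit3. It was 1.07 for Isg15, 0.75 for Irf7 and 0.70 for Oasl2. Outside the list the difference was 0.99 for the chemokine Cxcl2, 0.46 for the macrophage receptor Marco, 0.37 for Ccn2 and 0.34 for Thbs1. These are differences of net changes, not of levels. The mean levels of Marco and Ccn2 were lower in the knockdown arm both without treatment and after both agents. For Slc38a2, the single gene with a lower value in the knockdown, it was -0.56. The calls of Marco and Ccn2 were lost with most single libraries left out, and the GC and length offsets ended that of Marco (adjusted p = 0.425).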

How the results depend on the processing

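Without TMM factors, when libraries were scaled by their totals, 1153 genes were higher and 4503 lower in the net effect, 1170 and 4003 in the control siRNA arm, and the median moved to -0.13. A limit of 2-fold gave 436 and 278 genes, 390 and 243 in the control arm, and 5 and 0 in the difference, as that limit is stricter by construction. The replicate block gave 2207 higher and 2164 lower genes in the net effect. It moved no count by over 1.5 times without the GC correction, and the labels do not state whether the replicate numbers pair the samples. With GC content and length offsets together with the replicate block, 2830 genes were higher in the control arm and 84 higher and 22 lower in the difference, against 64 and 14 with the offsets alone. No filter on low counts gave 43 and 13 genes in the difference and DESeq2 gave 40 and 6, against 24 and 1; the cause was not tested. Leaving out both libraries numbered 2, chosen after seeing the data, left 1393 lower genes of 2114, with fewer samples. Leaving out single libraries gave 15 to 25 genes higher in the difference, lowest without siprdx1 replicate 1, and 1679 to 1909 higher and 1663 to 1821 lower in the net effect. Of 188 named genes 32 lost their net call in at least 1 alternative, and 10 of 25 difference genes did. The sign changed for 3 values: Cyp11a1 (-0.12) and Ctss (-0.002) with library size alone, and Insl3 (-0.0483, up to 0.71 with other single libraries left out) without siprdx1+H2O2+FV replicate 2.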
